A study of Homo sapiens with 4 samples.

Results

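ATP-binding cassette (ABC) proteins are ATPases, and the family is defined here as every row of the count table whose gene symbol is ABC, a subfamily letter from A to G and a number. This pattern found 46 of 57992 rows. They were sorted by what their proteins are known to carry or do: 12 drug efflux genes, 18 lipid and bile salt genes, 4 mitochondrial, 3 peroxisomal, 2 lysosomal and 4 ribosome-linked genes, 2 regulators of potassium channels, and ABCC13, a pseudogene in GENCODE release 29. The peptide transporters TAP1 and TAP2 and the chloride channel CFTR belong to the same family under other names and are given as relatives.

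Messenger RNA was measured in a derivative of MOLM13, a human acute myeloid leukaemia cell line, that the labels call VEN-R (resistant to venetoclax, an inhibitor of BCL2). All 4 libraries came from cells given doxycycline. It induced a control short hairpin RNA in 2 libraries (genotype labelled WT) and a hairpin against PRMT9, an arginine methyltransferase, in the other 2. The labels number the libraries 1 and 2 within a group and do not say whether these are separate cultures, technical repeats or different hairpin sequences, so p-values measure only the spread between these libraries. Cells that had not become resistant were not analysed here, so nothing below compares resistant with sensitive cells.

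Most ABC proteins are membrane pumps in which a pair of ATP-binding domains drives a substrate through paired membrane domains. Subfamilies A and G mainly move lipids and sterols, parts of B, C and G export drugs and conjugates, subfamily D serves peroxisomes, and several B members sit in mitochondria. The E and F members have the ATP-binding domains but no membrane part, and they act on ribosomes. In leukaemia the family is best known for the efflux pumps ABCB1 (P-glycoprotein), ABCC1 and ABCG2, and venetoclax is itself a substrate of P-glycoprotein and ABCG2.

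Total counts ranged from 28592902 to 33845172 per library, and between 38174 and 49814 of these counts fell on the family, or 0.124% to 0.164% of a library. PRMT9 itself had 398 and 406 counts with the control hairpin and 81 and 78 counts with the PRMT9 hairpin (log2 fold change -2.48, SE 0.12, edgeR adjusted p = 1.125e-11). Of 14 myeloid leukaemia markers, 13 were tested, and the list summed to 1694 and 1685 CPM (counts scaled to a common library size) in the controls against 2272 and 2270 CPM with the PRMT9 hairpin. Of 16 markers of T, B, erythroid, epithelial, stromal and endothelial cells, 5 had no count in any library, HBA1, HBB, EPCAM and KRT19 among them. That list summed to 1.26 and 1.41 CPM in the controls and 2.04 and 2.80 CPM with the PRMT9 hairpin, and 1 of its 3 tested genes was called, the stromal marker PDGFRB, with 6 and 3 counts against 24 and 41. The part of these markers in the results was not tested.

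Of the 46 members, 28 had enough reads to be tested and 18 did not. Among the 28, 13 were higher and 10 were lower with the PRMT9 hairpin at a Benjamini-Hochberg adjusted p below 0.05 in edgeR, and 5 were not called. The share called was 82.1% of the tested members, against 68.0% of all 15193 genes tested (33.4% higher and 34.5% lower), so a call by itself does not set a member apart. In 25 of the 28, or 89.3%, the values of the groups did not overlap, which held for 83.3% of all tested genes. Of the 28 tested members, 4 were called with a change of 2-fold or more, near the share of 13.7% over all tested genes. All 4 rose, while the share over all genes counts both directions and is not split here. Of the 28, 3 (ABCB11, ABCA9 and ABCA10) passed the filter on low counts only through the PRMT9 hairpin group, where they were high, so counts and medians over the tested members are a description.

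**Figure D1:**
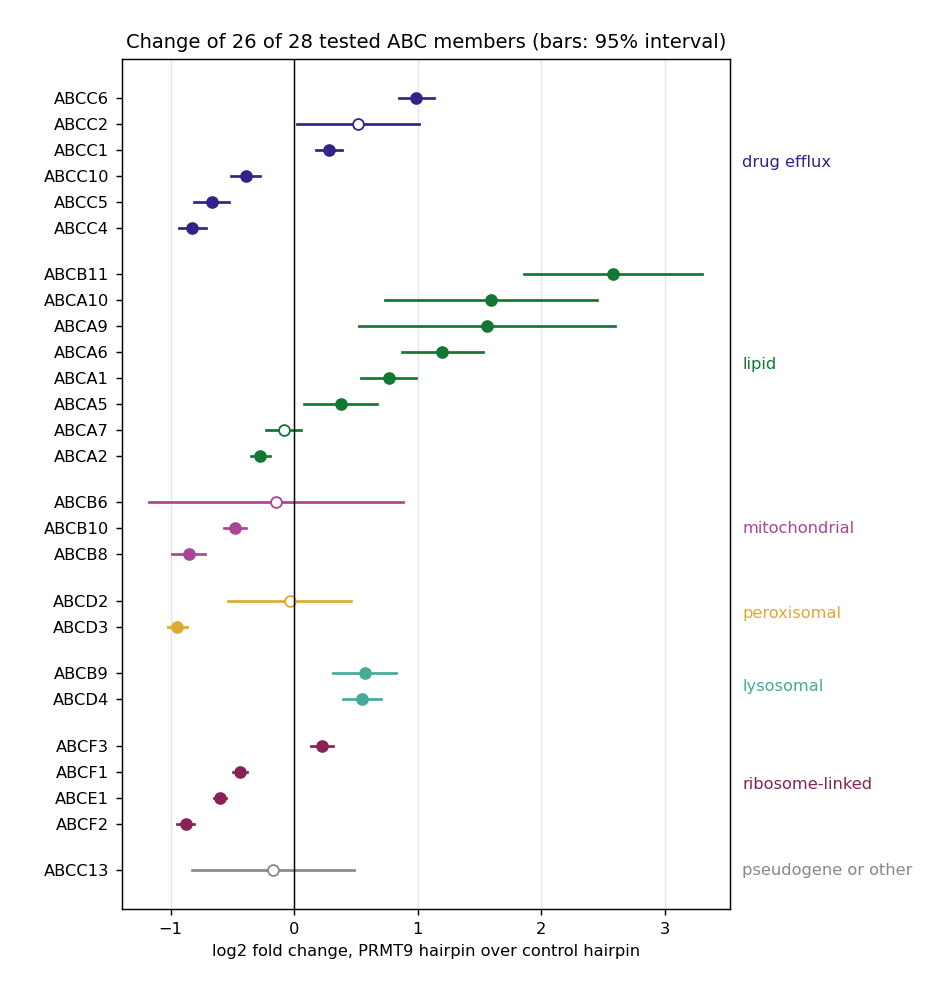
Log2 fold change of 26 of the 28 tested ABC members, PRMT9 hairpin over control hairpin, with its 95% confidence interval (bar), grouped by class. Filled points passed the edgeR threshold and open points did not. The lipid class reaches furthest up, to 2.58 for ABCB11, and no member shown fell below -0.95. ABCB11, ABCA10 and ABCA9 were tested only through the PRMT9 hairpin group, where they were high.

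By class, among tested members the median log2 fold change was 0.98 for the lipid class (6 higher, 1 lower of 8), -0.06 for drug efflux (2 higher, 3 lower of 6), -0.31 for the mitochondrial class (4 genes), -0.04 for the peroxisomal class (3 genes) and -0.52 for the ribosome-linked class (1 higher, 3 lower of 4), beside 0.00 over all genes tested. Of the 8 tested lipid genes, 3 (ABCB11, ABCA10 and ABCA9) passed the filter on low counts only through the PRMT9 hairpin group, where they were high. The lipid median and its counts are therefore a description. Over all tested genes 33.4% were called higher and 34.5% lower. Both lysosomal genes were higher. These medians rest on 3 to 8 genes each, and the signs of the drug efflux and peroxisomal medians turned with upper-quartile scaling (0.0315 and 0.0516). The lipid median was 0.60 with a filter at 1 CPM, and 0.49 in log2(RPKM + 0.1) and 0.18 in log2(RPKM + 1). The mitochondrial median includes ABCB6, whose count is not read here as its level. That median was -0.45 with a filter at 1 CPM and -0.48 in log2(RPKM + 0.1), where ABCB6 was filtered out.

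The members that rose by 2-fold or more were ABCB11, ABCA10, ABCA9 and ABCA6, and their promoters are described here by their CG pairs. RefSeq (GRCh38.p14) gave a promoter window of 300 bases, from 250 before to 50 after a transcript start, for 35 members and for 24 of the 28 tested ones. Taking the window with most CG pairs where a gene had several, ABCB11 and ABCA10 had 3, ABCA6 had 2 and ABCA9 had 1. The fifth tested member at this level was ABCC2, with 1 CG pair and no call. The other 19 tested members had between 8 and 66, of which 6 rose, 10 fell and 3 were not called, and the largest rise among them was 0.99. Of all 35116 RefSeq promoters, each window taken singly, 24.5% had 3 CG pairs or fewer, and the median was 14. The member values differ in measure, since they take the most over a gene's windows. ABCB11, ABCA10 and ABCA9 passed the filter only through the group where they were high, so they could hardly have been tested without a rise. Of the CG-poor members that passed in all libraries, ABCA6 rose and ABCC2 was not called, so the counts above support nothing about CG pairs. The limit was chosen after the values were seen. The 5 CG-poor members were also weakly expressed, with mean levels of at most 4.18 CPM against a median of 23.7 CPM in the other 19, and the part of expression level in the pattern was not tested. RefSeq held a promoter for only 69.1% of all tested genes, and CG pairs were not set against change over all genes.

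To show these windows, the 250 bases before the start are printed for the 4 members that rose most and for ABCD3 and ABCF2, the pair that fell most. Each is written 5′ to 3′ on the gene's strand, with CG pairs in capitals. The windows are chr2:169031325-169031574 for ABCB11, chr17:69244849-69245098 for ABCA10, chr17:69060928-69061177 for ABCA9, chr17:69141896-69142145 for ABCA6 and chr7:151227206-151227455 for ABCF2 (all on the minus strand), and chr1:94418139-94418388 for ABCD3 (plus strand).
ABCB11: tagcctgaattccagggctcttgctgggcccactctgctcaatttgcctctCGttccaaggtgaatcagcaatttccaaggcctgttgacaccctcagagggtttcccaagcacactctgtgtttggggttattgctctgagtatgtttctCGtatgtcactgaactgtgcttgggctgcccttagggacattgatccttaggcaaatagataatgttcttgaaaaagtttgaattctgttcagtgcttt
ABCA10: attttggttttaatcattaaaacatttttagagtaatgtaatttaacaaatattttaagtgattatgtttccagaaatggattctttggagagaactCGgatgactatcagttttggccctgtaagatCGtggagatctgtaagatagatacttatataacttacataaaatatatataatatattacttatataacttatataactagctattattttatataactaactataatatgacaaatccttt
ABCA9: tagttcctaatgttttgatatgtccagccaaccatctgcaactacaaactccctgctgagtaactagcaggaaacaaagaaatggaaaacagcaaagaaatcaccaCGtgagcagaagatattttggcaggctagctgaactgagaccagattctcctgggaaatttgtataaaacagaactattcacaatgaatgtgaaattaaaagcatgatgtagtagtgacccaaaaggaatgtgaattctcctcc
ABCA6: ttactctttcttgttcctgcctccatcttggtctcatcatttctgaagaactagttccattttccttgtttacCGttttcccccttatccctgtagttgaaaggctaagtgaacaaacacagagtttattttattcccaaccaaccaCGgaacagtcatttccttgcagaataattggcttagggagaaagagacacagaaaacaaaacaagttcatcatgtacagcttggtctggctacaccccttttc
ABCD3: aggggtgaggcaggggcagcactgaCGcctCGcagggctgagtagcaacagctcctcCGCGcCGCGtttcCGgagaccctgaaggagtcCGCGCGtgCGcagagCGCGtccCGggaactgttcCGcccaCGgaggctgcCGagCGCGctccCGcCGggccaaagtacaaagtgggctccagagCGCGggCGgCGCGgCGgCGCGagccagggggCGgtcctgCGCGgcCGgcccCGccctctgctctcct
ABCF2: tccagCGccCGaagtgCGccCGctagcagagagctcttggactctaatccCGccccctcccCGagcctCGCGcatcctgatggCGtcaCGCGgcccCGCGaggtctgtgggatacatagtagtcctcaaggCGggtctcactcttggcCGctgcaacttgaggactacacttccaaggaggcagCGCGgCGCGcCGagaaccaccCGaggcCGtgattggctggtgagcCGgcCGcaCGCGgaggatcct
The stretches of the 4 members that rose most hold 1 or 2 CG pairs each, while those of ABCD3 and ABCF2 hold 34 and 26. These genes were picked by their change, so the contrast between them is a description. ABCB11, ABCA10 and ABCA9 were also tested only through the PRMT9 hairpin group, where they were high. Of the tested members with 8 or more CG pairs in the full window, 6 rose, 10 fell and 3 were not called.

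**Figure D2:**
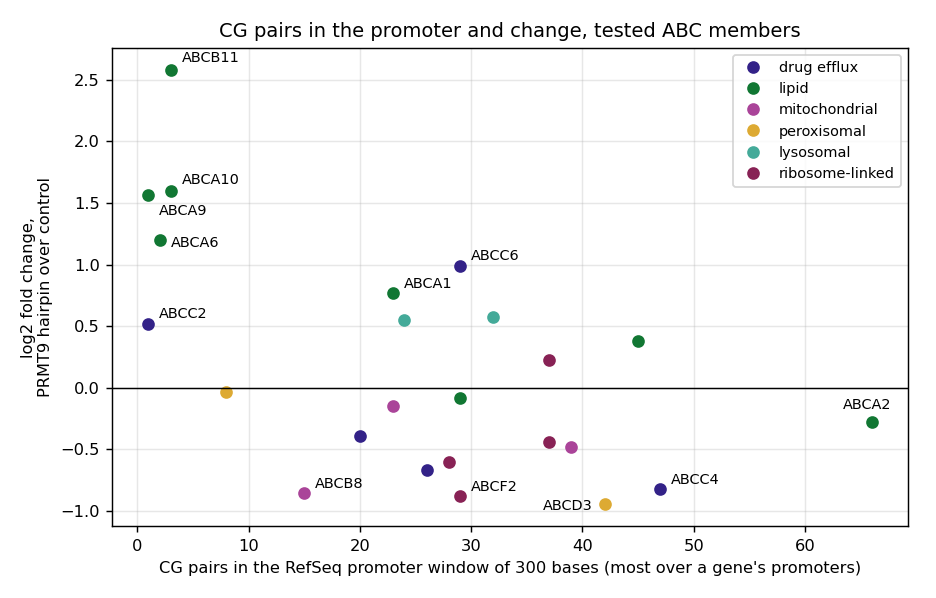
CG pairs in the RefSeq promoter window (horizontal axis, the most over a gene's promoters) against the log2 fold change with the PRMT9 hairpin (vertical axis) for the 24 tested members with a promoter, coloured by class. The 4 genes above a change of 1 lie at 3 CG pairs or fewer, and ABCC6 at 29 CG pairs comes next with 0.99. ABCB11, ABCA10 and ABCA9 were tested only through the PRMT9 hairpin group, where they were high.

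Short promoter motifs were counted on both strands of the 53 member windows, some of which overlap within a gene. The E-box CACGTG was in 9 windows (17% against 7.26% of all promoters), from ABCA1, ABCA9, ABCA12, ABCB6, ABCB9, ABCC10, ABCF1 and a pair of overlapping windows of ABCG2. The CCAAT box was in 22.6% of member windows against 34.6% of all, the GC box GGGCGG in 47.2% against 45%, TATAAA in 15.1% against 11.5%, and the antioxidant element core TGANNNNGC in 43.4% against 41.8%. The perfect direct repeat bound by LXR, the sterol receptor, was in none of the member windows and in 0.0199% of all. Imperfect repeats were not searched, so this does not show that a window lacks an LXR site. The interferon element core was in the windows of ABCA9 and ABCC2 (3.77% against 3.57%).

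Among lipid transporters the bile salt export pump gene ABCB11, best known from liver, showed the widest difference among tested members. It passed the filter on low counts only through the PRMT9 hairpin group, where it was high. Its rank, its gap between groups and its adjusted p are therefore a description and no support. ABCB11 (chromosome 2, 168922938 to 169031322) had 7 and 10 counts in the controls and 51 and 63 counts with the PRMT9 hairpin. This is 0.231 and 0.353 CPM against 1.65 and 1.86 CPM, and the groups did not overlap, which held for 83.3% of all tested genes. On the log2 scale ABCB11 was higher by 2.58 (95% confidence interval 1.86 to 3.31, edgeR adjusted p = 3.74e-06), a 5.99-fold difference. At 0.340 RPKM with the PRMT9 hairpin (RPKM, the CPM per kilobase of exon) it was still a weak transcript.

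ABCA1, which passes cholesterol and phospholipid to apolipoprotein A-I in macrophages, also rose. ABCA1 (chromosome 9, 104781002 to 104928237) had 7.80 and 6.46 CPM in the controls and 11.5 and 12.7 CPM with the PRMT9 hairpin, with both knockdown libraries above both controls. On the log2 scale this is a rise of 0.77 (SE 0.10, edgeR adjusted p = 5.43e-06). Tested against a fold of 1.5 the rise did not pass (edgeR glmTreat adjusted p = 0.0754). ABCG1, its partner in sterol efflux to lipoprotein particles, had no count in any library, where 3 counts would have given at most 0.0173 RPKM. ABCA2, an endolysosomal lipid transporter and the most abundant of the class at 9.70 RPKM in the controls, went down from 115 and 109 CPM to 95.1 and 89.8 CPM (log2 fold change -0.27, edgeR adjusted p = 3.53e-06). ABCA7, a phospholipid transporter of phagocytes, had 19.5 and 18.5 CPM against 18.3 and 17.6 CPM and was not called (log2 fold change -0.09, 95% confidence interval -0.23 to 0.06, edgeR adjusted p = 0.27).

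The remaining lipid genes that rose lie side by side on chromosome 17, in a tandem cluster of related transporters on the minus strand that runs from ABCA8 (start 68867292) to ABCA5 (end 69327244). ABCA6 had 2.18 and 2.89 CPM in the controls and 5.89 and 5.74 CPM with the PRMT9 hairpin (log2 fold change 1.20, SE 0.16, edgeR adjusted p = 2.83e-06). ABCA10 had 16 and 6 counts against 28 and 46 (1.59, edgeR adjusted p = 0.00231). ABCA9 had 10 and 3 counts against 21 and 22 (1.56, edgeR adjusted p = 0.00952). ABCA5, the member at the other end of the cluster, had 3.70 and 4.66 CPM against 5.40 and 5.42 CPM (0.38, edgeR adjusted p = 0.0247). ABCA8 had 1, 0, 1 and 4 counts and was not tested. ABCA10 and ABCA9 passed the filter on low counts only through the PRMT9 hairpin group, where they were high, so their gap between groups is no support. Groups did not overlap, in either direction, in 83.3% of all tested genes. In all 4 tested genes both knockdown libraries lay above both controls, but only the ABCA6 call held with each library left out. In limma ABCA6 was not called in log2(RPKM + 0.1) (adjusted p = 0.0507) or in log2(RPKM + 1) without a filter (adjusted p = 0.084). ABCA10 was not called without PRMT9 hairpin library 2 (1.26, edgeR adjusted p = 0.0539), nor ABCA9 without control library 2 (log2 fold change 1.01, adjusted p = 0.1245). ABCA5 was not called without control library 1 (0.21, adjusted p = 0.264) or without PRMT9 hairpin library 1 or 2 (adjusted p = 0.0777 and 0.0878), nor with DESeq2 (adjusted p = 0.168), and DESeq2 did not call ABCA9 either (adjusted p = 0.0833). ABCA10 and ABCA5 overlap by 536 bases, and 4.84% and 2.02% of their windows of 50 bases also occur in other annotated genes.

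Of 22 genes on a list of LXR receptors, sterol regulators and cholesterol trafficking, 20 were tested, 12 were higher and 7 were lower, with a median of 0.30. This is 95% called, beside 68.0% of all tested genes (33.4% higher and 34.5% lower). MYLIP, a ubiquitin ligase gene, went from 98.2 to 267.5 CPM (log2 fold change 1.45), and LIPA, the lysosomal lipase, from 84.2 to 149.2 CPM (0.82). The desaturase gene SCD went from 1016 to 725 CPM (-0.49). Of the 13 tested myeloid markers 11 were higher and 2 were lower. ITGAM went from 30.6 to 108.8 CPM and CSF1R from 16.9 to 61.4 CPM, CD34, a marker of immature cells, from 0.343 to 1.37 CPM, MPO from 56.6 to 41.0 CPM and FCGR1A from 49.1 to 31.9 CPM. The part of these markers in the changes of the lipid class was not tested. In bulk RNA a change in the share of cells that express a gene and a change of RNA per cell cannot be told apart.

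Of the best-known efflux pumps, ABCB1 and ABCG2 were at or near 0, while ABCC1 was well detected. ABCB1 (chromosome 7, 87503633 to 87713323) had no count in any of the 4 libraries, which allows up to 0.0182 RPKM at 3 counts. ABCG2 had 0, 4, 1 and 1 counts. ABCB5 and ABCC12 had none, ABCC3 had 0, 0, 2 and 0, and ABCC11 had 5 and 6 against 1 and 1, under the filter on low counts. Without that filter ABCC11 was called lower (log2 fold change -2.46, edgeR adjusted p = 0.0386), and no difference was detectable at this depth for the others.

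The drug efflux genes that could be tested were all of subfamily C, and they split. ABCC4, which exports nucleotide analogues and cyclic nucleotides, was the most abundant of them in the controls with 7.65 RPKM. It had 57.5 and 62.0 CPM in the controls and 32.1 and 35.3 CPM with the PRMT9 hairpin, a clear gap between groups (log2 fold change -0.82, SE 0.05, edgeR adjusted p = 3.42e-10). ABCC5, a related exporter of nucleotide analogues and cyclic nucleotides, had 22.5 and 24.1 CPM against 14.5 and 14.8 CPM (-0.67, adjusted p = 1.47e-07). ABCC10, which can export taxanes, had 32.3 and 32.1 CPM against 23.8 and 25.3 CPM (-0.39, adjusted p = 7.08e-06).

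ABCC1 and ABCC6 went the other way, and they are neighbours. ABCC1 (chromosome 16, 15949577 to 16143074, plus strand) ends 5853 bases from ABCC6 (16148928 to 16223522, minus strand). ABCC1, the pump of glutathione conjugates and anthracyclines, had 34.2 and 35.03 CPM in the controls and 40.5 and 43.4 CPM with the PRMT9 hairpin (log2 fold change 0.28, SE 0.05, edgeR adjusted p = 9.62e-05). ABCC6, a liver and kidney transporter that promotes ATP release, had 17.0 and 14.7 CPM against 31.4 and 31.8 CPM, a 1.99-fold difference (0.99, SE 0.07, adjusted p = 7.91e-10). Of the windows of 50 bases in ABCC6, 18.2% also occur in other genes, mainly its pseudogenes ABCC6P1 and ABCC6P2, so some of its reads may be assigned either way. ABCC2, the exporter of conjugates into bile, had 46 and 34 counts against 66 and 61 and missed the threshold (0.52, 95% confidence interval 0.03 to 1.01, adjusted p = 0.0585). It passed without control library 1 (0.70, adjusted p = 0.0378), with upper-quartile scaling (0.61, adjusted p = 0.02925) and with a filter at 1 CPM (0.55, adjusted p = 0.0384). With the PRMT9 hairpin ABCC1 stood above ABCC4, at 5.52 ± 0.277 RPKM (SD, n = 2 libraries) against 4.30 ± 0.294 RPKM, the reverse of the controls (4.57 ± 0.158 against 7.65 ± 0.541 RPKM).

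**Figure D3:**
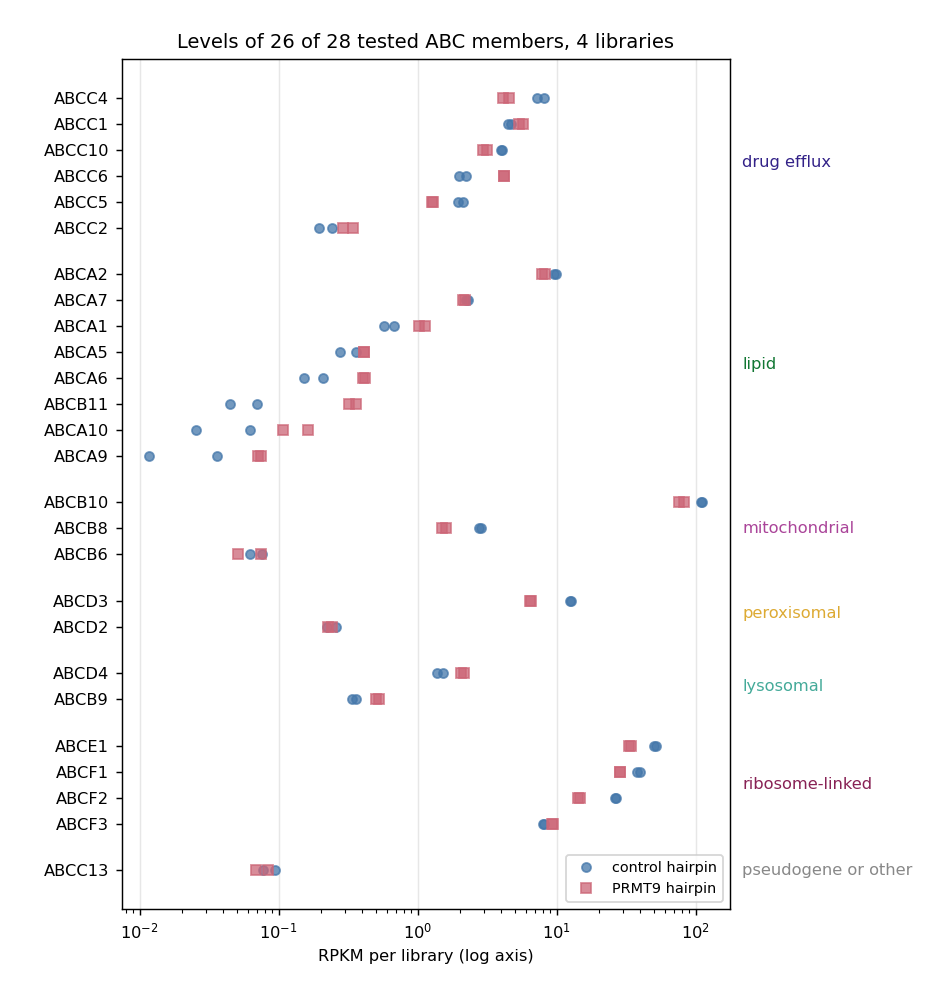
RPKM of 26 of the 28 tested ABC members in each library on a log axis, by class, with control hairpin libraries as circles and PRMT9 hairpin libraries as squares. ABCB10 and the ribosome-linked genes ABCE1, ABCF1 and ABCF2 sit highest in the controls, from 110.8 down to 26.6 RPKM on average, while 6 of the 8 lipid transporters lie below 1 RPKM in the controls.

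Genes that regulate or feed these pumps were examined as a list of 25, of which 22 were tested, 7 were higher and 13 were lower (median -0.19), or 90.9% called beside 68.0% of all tested genes. The glutathione synthesis genes GCLC and GCLM went from 26.3 to 14.3 CPM (log2 fold change -0.87) and from 35.6 to 21.4 CPM (-0.73). YBX1, a regulator of ABCB1 transcription, went from 1175 to 939 CPM (-0.32), and MSN, a membrane-cytoskeleton linker, from 1437 to 1229 CPM (-0.23).

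Mitochondrial members included the most abundant gene of the family. ABCB10, an inner membrane transporter with a role in heme synthesis, reached 110.8 ± 1.22 RPKM (SD, n = 2 libraries) in the controls and 79.4 ± 5.04 RPKM with the PRMT9 hairpin, and it supplied 33.1% to 36.3% of the summed RPKM of all members in every library. ABCB10 (chromosome 1, 229516582 to 229558695) had 473.8 and 469.6 CPM against 323.8 and 353.5 CPM, without overlap (log2 fold change -0.48, SE 0.04, edgeR adjusted p = 1.41e-05). ABCB8, an inner membrane transporter linked to iron export, had 26.1 and 26.3 CPM against 14.1 and 14.8 CPM (-0.85, SE 0.06, adjusted p = 3.24e-09).

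ABCB6, a porphyrin transporter, had only 12 and 9 counts in the controls and 12 and 9 with the PRMT9 hairpin, and was not called (log2 fold change -0.15, 95% confidence interval -1.17 to 0.88, edgeR adjusted p = 0.804). Its span (chromosome 2, 219209768 to 219218990) lies, but for its first few bases, inside the span that the deposited table gives to ATG9A on the same strand, and 54.7% of its exon bases are shared with a read-through gene in GENCODE release 29. ATG9A had 922 and 908 counts against 1340 and 1389. Reads from shared exons can be assigned to either gene or to none, so the ABCB6 count is not read as its level.

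Of 31 matched genes of heme and iron-sulphur cluster synthesis, 29 were tested, 9 were higher and 14 were lower (median -0.07), or 79.3% called beside 68.0% of all tested genes. The first enzyme of heme synthesis, ALAS1, went from 48.5 to 75.6 CPM (log2 fold change 0.64). The chaperone gene HSPA9 went from 736.7 to 509 CPM (-0.53) and CIAPIN1, of cytosolic cluster assembly, from 52.8 to 32.7 CPM (-0.69).

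Among peroxisomal members, ABCD3, which imports branched-chain and bile acid precursors, had 95.3 and 93.5 CPM in the controls and 49.5 and 48.4 CPM with the PRMT9 hairpin. Among members that passed the filter on low counts this was the widest fall (log2 fold change -0.95, SE 0.04, edgeR adjusted p = 4.72e-13; chromosome 1, 94418455 to 94518666). ABCD2, an importer of fatty acids, had 49 and 39 counts against 44 and 51 and was not called (-0.04, 95% confidence interval -0.53 to 0.46, adjusted p = 0.899).

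Of 36 other peroxisomal genes, 35 were tested, 16 were higher and 9 were lower (median 0.09). The share called, 71.4%, was near the 68.0% of all tested genes. Catalase (CAT) went from 96.6 to 142.2 CPM (log2 fold change 0.56) and the oxidase gene ACOX3 from 23.3 to 38.4 CPM (0.72). AGPS, of ether lipid synthesis, went from 114.9 to 75.4 CPM (-0.61), and SLC27A2, a very long chain acyl-CoA synthetase, from 30.9 to 17.5 CPM (-0.82).

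The lysosomal members both rose by a similar amount. ABCD4, which works in the export of vitamin B12 from lysosomes, had 12.2 and 13.1 CPM against 18.1 and 18.9 CPM (log2 fold change 0.55, SE 0.07, edgeR adjusted p = 4.75e-06). ABCB9, a lysosomal peptide transporter, had 4.83 and 4.41 CPM against 6.69 and 7.04 CPM (0.57, SE 0.12, adjusted p = 0.000495). Of the exon bases of ABCB9, 24.5% overlap genes on the opposite strand, and the sources used here do not say if reads were counted by strand. In log2(RPKM + 1) the ABCB9 change was not called (0.17, limma adjusted p = 0.13). The relatives TAP1 and TAP2, which together carry peptides to MHC class I, went in opposite directions, with TAP1 from 32.4 to 42.4 CPM (0.39) and TAP2 from 31.0 to 16.2 CPM (-0.93). CFTR and the channel regulators ABCC8 and ABCC9 had at most 1 count in a library, and the pseudogene ABCC13 had 31, 23, 28 and 25 counts and was not called (-0.17, adjusted p = 0.637).

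The ribosome-linked members were abundant, and all 4 passed the threshold, as did 68.0% of all tested genes. ABCF2 (chromosome 7, 151207837 to 151227230) had 118.7 and 118.2 CPM in the controls and 65.5 and 63.4 CPM with the PRMT9 hairpin (log2 fold change -0.88, SE 0.03, edgeR adjusted p = 3.69e-13). ABCE1, which splits ribosomes after termination so that they can be used again, had 320.0 and 320.9 CPM against 208.1 and 215.0 CPM (-0.60, SE 0.02, adjusted p = 7.73e-13). ABCF1, which binds the initiation factor eIF2 and ribosomes, had 173.1 and 177.1 CPM against 129.7 and 128.5 CPM (-0.44, SE 0.03, adjusted p = 2.13e-10). ABCF3 rose slightly, from 42.0 and 41.7 CPM to 48.4 and 49.4 CPM (0.22, SE 0.04, adjusted p = 0.000181). In each of the 4 genes the groups did not overlap, which held for 83.3% of all tested genes. OTUD4, on the opposite strand, spans 58.7% of ABCE1 and fell by 0.94 on the log2 scale, and 11.9% of ABCE1 exon bases overlap exons on that strand. In GENCODE release 29, 45.8% of ABCF2 exon bases are shared with a read-through gene on its own strand, which has no row in the deposited table.

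Among members that lie near each other, ABCB8 and ABCF2 are 160054 bases apart on chromosome 7 and fell by 0.85 and 0.88 on the log2 scale. ABCC5 and ABCF3 are 168007 bases apart on chromosome 3 and went in opposite directions.

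Of 24 matched genes of ribosome recycling, start codon selection and the eIF2 pathway, all were tested, 3 were higher and 18 were lower (median -0.37), or 87.5% called beside 68.0% of all tested genes (33.4% higher and 34.5% lower). The termination factor genes GSPT1 and ETF1, which act just before ABCE1, went from 294 to 165 CPM (log2 fold change -0.83) and from 195.5 to 120.6 CPM (-0.70). EIF1AX went from 197 to 125 CPM (-0.66) and EIF3J, a factor with a known role in recycling, from 185 to 123 CPM (-0.59).

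Summed over all members, the family fell from 303 and 310 RPKM in the controls to 229 and 238 RPKM with the PRMT9 hairpin, a ratio of 0.761. The mitochondrial and ribosome-linked genes carried most of the sum. The ribosome-linked sum went from 122.6 and 126.5 RPKM to 85.7 and 86.4 RPKM and its share of the family from 40.4% and 40.8% to 37.3% and 36.4%. The mitochondrial sum went from 129.4 and 131.8 RPKM to 98.7 and 105.4 RPKM, and its share was 42.7% and 42.5% against 43.0% and 44.4%. The drug efflux sum was 20.1 and 21.1 RPKM against 18.1 and 19.1 RPKM. The lipid sum was 13.4 and 13.1 RPKM against 12.8 and 12.5 RPKM, lower although 6 of its 8 tested genes rose, since ABCA2 made up most of it. With 2 libraries against 2 an exact two-sided permutation test cannot go below p = 0.333, so no test of these sums is given.

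**Figure D4:**
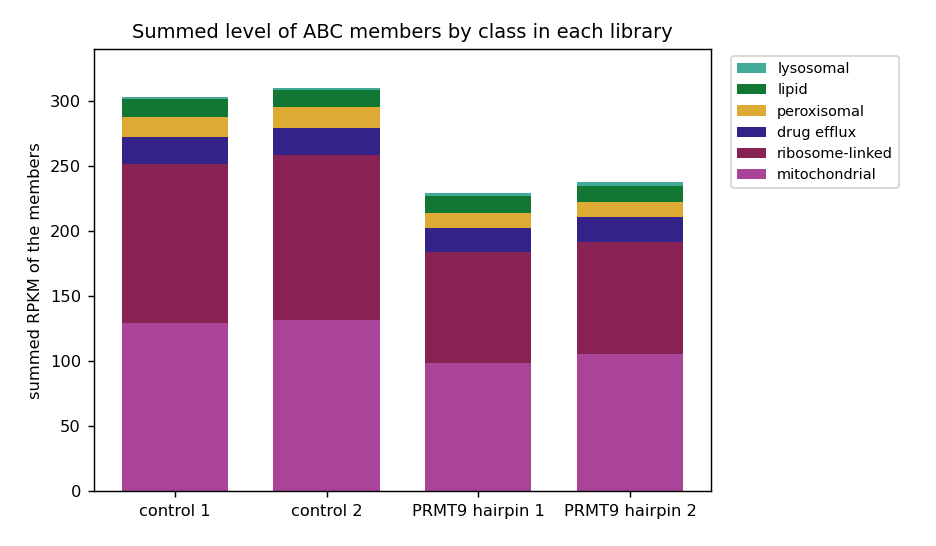
Summed RPKM of the ABC members in each of the 4 libraries, stacked by class from 0. The stack is lower in both PRMT9 hairpin libraries (229 and 238) than in both controls (303 and 310), with the difference mainly in the mitochondrial and ribosome-linked parts.

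Ordered by level in the controls, the most abundant of the members named here were ABCB10, ABCE1 (51.2 RPKM), ABCF1 (38.7 RPKM), ABCF2 (26.6 RPKM), ABCD3 (12.6 RPKM) and ABCA2 (9.70 RPKM), in each case with both libraries above those of the gene named after it. ABCF3 (8.04 RPKM) and ABCC4 (7.65 RPKM) overlapped, as did ABCC6 and ABCC5. With the PRMT9 hairpin ABCF2 was at 14.5 RPKM, and ABCF3 (9.37 RPKM) stood above both ABCA2 (8.01 RPKM) and ABCD3 (6.50 RPKM).

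Members too weak to test had at most 13 counts in a library. Of these 18, 7 had no count at all (ABCA4, ABCB1, ABCB5, ABCC8, ABCC12, ABCG1 and ABCG8). The surfactant lipid transporter gene ABCA3 had 6 and 3 counts in the controls and 13 and 10 with the PRMT9 hairpin, and the phosphatidylcholine translocator gene ABCB4 had 3 and 3 against 5 and 7. ABCA12, ABCA13, ABCG4 and ABCG5 had between 0 and 3 counts per library.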

How the data were processed

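The authors deposited raw read counts and RPKM values per gene, and the file names give the build as hg38. The submitters' processing notes list Trimmomatic 0.39, STAR 2.7.2a and SAMtools 1.10 and give no order. Which program counted reads, with which annotation and whether by strand, is not given in the sources used here. Each deposited RPKM equals the count per kilobase of exon and per effective library size, the total scaled by a TMM factor over all rows.

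From the counts, 15193 genes were kept by edgeR 4.0.16 (filterByExpr, at least 10 counts) and were tested with the edgeR quasi-likelihood test (TMM scaling, group term, robust estimation) in R 4.3.3, with Benjamini-Hochberg adjustment over all genes and a threshold of 0.05. Standard errors were taken from the F statistic. CPM are scaled by the TMM factors. The script was tested on simulated data. Alternatives used DESeq2 1.42.0, limma 3.58.1, other scalings and filters, the replicate number as a block and each library left out.

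The members, classes and other lists were chosen with earlier results of these data known. Values per library are given for tested members outside the lipid class, for the called lipid genes, ABCA1 and ABCG1, and for the relatives and up to 4 called genes with the lowest adjusted p of each partner list as group means. A few of these genes are not reported here. Other genes named were chosen after their values were seen. Shared windows and exons come from GENCODE release 29, promoters from RefSeq. No protein sequences were used here.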

Additional observations from a re-analysis of the deposited data

How the results depend on the processing

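The count of higher members was 13 and of lower members 10. Leaving out each library gave 11 to 13 higher and 10 to 10 lower members. A test against a fold of 1.5 left 4 higher and 4 lower, and 2884 of all genes in place of 10327. In limma, log2(RPKM + 0.1) gave 8 higher members and log2(RPKM + 1) without a filter gave 6. The other settings stayed within 1.5 times both counts.

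With the replicate number as a block 13 members were higher and 10 lower, and no member changed its call. Same-numbered libraries did not deviate together (correlation -0.0332 across genes), so the numbers were not taken as pairs.

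Class medians moved more. For drug efflux (-0.06) the median was 0.0315 with upper-quartile scaling, -0.39 with no filter on low counts, -0.025 with a filter at 1 CPM, -0.10 in log2(RPKM + 1) and -0.0118 in log2(RPKM + 1) without a filter. For the lipid class (0.98) these were 0.83 with no filter, 0.60 at 1 CPM, 0.18 in log2(RPKM + 1), 0.49 in log2(RPKM + 0.1) and 0.0153 in log2(RPKM + 1) without a filter. For the mitochondrial class (-0.31) they were -0.22 with upper-quartile scaling, -0.45 at 1 CPM, -0.48 in log2(RPKM + 1), -0.48 in log2(RPKM + 0.1) and -0.24 in log2(RPKM + 1) without a filter. For the ribosome-linked class (-0.52) they were -0.43 with upper-quartile scaling, -0.50 with library totals, -0.49 at 1 CPM and -0.51 in log2(RPKM + 1) with or without a filter. The peroxisomal median (-0.04) was 0.0516 with upper-quartile scaling and ranged from -0.13 to 0.0818 with a library left out. The ranges with a library left out were -0.10 to -0.0133 for drug efflux, 0.84 to 1.22 for lipid, -0.42 to -0.21 for mitochondrial and -0.54 to -0.49 for ribosome-linked members. The added constant shrinks changes of weak genes by construction. Filters also change which members enter a median, with 24 tested at 1 CPM and 39 with no filter in place of 28. ABCB6, whose count is not read as its level, left the mitochondrial median at 1 CPM and in the filtered RPKM settings. The cause of the remaining shifts was not tested.

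Among 906 recomputed gene values, 851 kept direction and side of the threshold. The 6 that turned sign were all of genes not called, namely ABCA7 (0.0025) and ABCD2 (0.0516) with upper-quartile scaling, ABCB6 without control library 1 (0.02) or PRMT9 hairpin library 2 (0.12), and ABCC13 (0.0019) and ABCD2 (0.0818) without control library 1. With a library left out ABCC13 ranged from -0.3234 to 0.0019. Depth limits genes under about 10 counts.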
